A study of Mus musculus with 6 samples.

Results

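The ATF4 and CHOP stress transcription circuit is described here through 10 genes, Atf4, Atf3, Atf5, Ddit3, Trib3, Ppp1r15a, Nupr1, Cebpb, Cebpg and Eif4ebp1. A gene was read from probe sets annotated to it alone. Each of the 10 genes had 1 such probe set, of 22180 genes and 41345 probe sets in all. The arrays measured total RNA of RAW 264.7, a virus-transformed mouse macrophage-like line. In the Mist-targeted group (n = 3) the cells received an antisense locked nucleic acid GapmeR, which directs RNase H to its target, against the long noncoding RNA Mist. In the Control group (n = 3) they received a non-targeting GapmeR. Both groups were transfected with 50 nM by Lipofectamine RNAiMAX and collected at 48 h, so the lipid and the oligonucleotide chemistry are shared, and the labels name a single GapmeR against Mist. Group membership comes from the labels alone, as the amount of Mist RNA was not analysed here.

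The integrated stress response starts when kinases that sense unfolded protein, amino acid shortage, double-stranded RNA or heme shortage phosphorylate the translation factor eIF2 on its alpha subunit. General translation then falls while the messenger of ATF4 is translated more, and ATF4, paired with a C/EBP protein, turns on genes of amino acid supply together with Ddit3 (which encodes CHOP), Atf3 and Trib3. The circuit also holds its own brake, since the protein of Ppp1r15a (GADD34) brings a phosphatase to eIF2. In macrophages several of these factors also take part in the control of inflammatory genes. The arrays read RNA only, and neither ATF4 protein nor the phosphorylation of eIF2 was measured.

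Promoter sequence is shown for the circuit genes whose window held the letters of a response element of this pathway. Windows of 250 bases before to 50 bases after the transcription start, from RefSeq on GRCm38.p6, were matched for 9 of the 10 genes (all but Eif4ebp1), with 2 windows for Atf5. Both strands were searched for the C/EBP-ATF response element, TGATGNAA, through which ATF4 and its C/EBP partners act, for the cAMP response element, TGACGTCA, and for the CCAAT box, CCAAT. The first was found in Trib3, Atf3 and Nupr1, and in 4.51% of all 27025 genes with a window (3.97% of all 32851 promoter windows). The second was found in Ppp1r15a, and in 2.03% of these genes (1.79% of windows). The CCAAT box was found in Atf3, Atf4, Atf5, Cebpg and Ddit3, and in 41.1% of these genes (37.4% of windows). No matches overlapped each other. The stretches below run 5′ to 3′ on the strand of the gene, with the matched letters in capitals. For Atf3, Nupr1 and Trib3 the match reads on the opposite strand, so that TTGCATCA stands for TGATGCAA. The stretches of Atf3, Nupr1 and Ppp1r15a cover positions -160 to -1, where the first transcribed base is 1, and that of Trib3 is the 30 bases around its match.
Trib3 (chr2:152344028-152344057, minus strand): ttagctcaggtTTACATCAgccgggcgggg
Atf3 (chr1:191183334-191183493, minus strand): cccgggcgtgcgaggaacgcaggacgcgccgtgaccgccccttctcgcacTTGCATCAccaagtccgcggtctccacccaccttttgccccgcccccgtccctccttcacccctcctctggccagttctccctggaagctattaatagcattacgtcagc
Nupr1 (chr7:126625471-126625630, minus strand): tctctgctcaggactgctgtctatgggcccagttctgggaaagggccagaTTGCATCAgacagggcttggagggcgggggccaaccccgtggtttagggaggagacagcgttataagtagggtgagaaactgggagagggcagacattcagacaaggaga
Ppp1r15a (chr7:45526269-45526428, minus strand): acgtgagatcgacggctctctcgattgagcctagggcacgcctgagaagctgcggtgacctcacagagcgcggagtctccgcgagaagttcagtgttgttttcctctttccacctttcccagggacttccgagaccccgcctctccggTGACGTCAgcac
In both Atf3 and Nupr1 the match lies at positions -110 to -103. In Ppp1r15a it lies at -12 to -5, next to the start, and in Trib3 it lies past the start, at 15 to 22. A match describes letters only, and no match says no more than that these letters are not in the window.

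All 10 genes had lower values with the Mist-targeted GapmeR, and in every one of them the highest Mist-targeted array lay below the lowest Control array. Over all 22180 genes, the groups did not overlap and were lower in 9.97%. The circuit genes were chosen with earlier results of these data known, so the shares given here are no test of the circuit. Trib3, Ddit3 and Ppp1r15a fell at an adjusted p under 0.05 (limma over all 41345 probe sets, Benjamini-Hochberg), 0 genes of the circuit rose and 7 did not pass. Over all genes, 0.203% fell and 0.212% rose by the same rule. At an unadjusted p under 0.05, all 10 were lower, against 5.79% of all genes. With testing limited to probe sets of 1 gene, 8 of the 10 fell, all but Cebpg and Atf5, against 1.88% of all genes. Log2 differences, Mist-targeted minus Control, ran from -1.15 for Trib3 to -0.30 for Atf5 with a median of -0.53, against a median of 0.0069 over all genes. In a culture measured in bulk, fewer cells expressing a gene and less RNA of it per cell cannot be told apart. Without any 1 of the 6 arrays, 0 of the 10 genes passed. All 10 differences stayed negative, which the lack of overlap between the groups fixes in advance. The lowest adjusted p values in these limma fits were 0.0966 for Trib3, 0.0963 for Ddit3 and 0.1003 for Ppp1r15a. These fits called few genes anywhere, with 0 to 12 of all 22180 genes lower, against 45 with all 6 arrays. A model without moderation of the variance also called 0 of the 10 (adjusted p = 0.182 for Trib3). That model called 0 of all 22180 genes, so its count says nothing particular to the circuit.

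**Figure D1:**
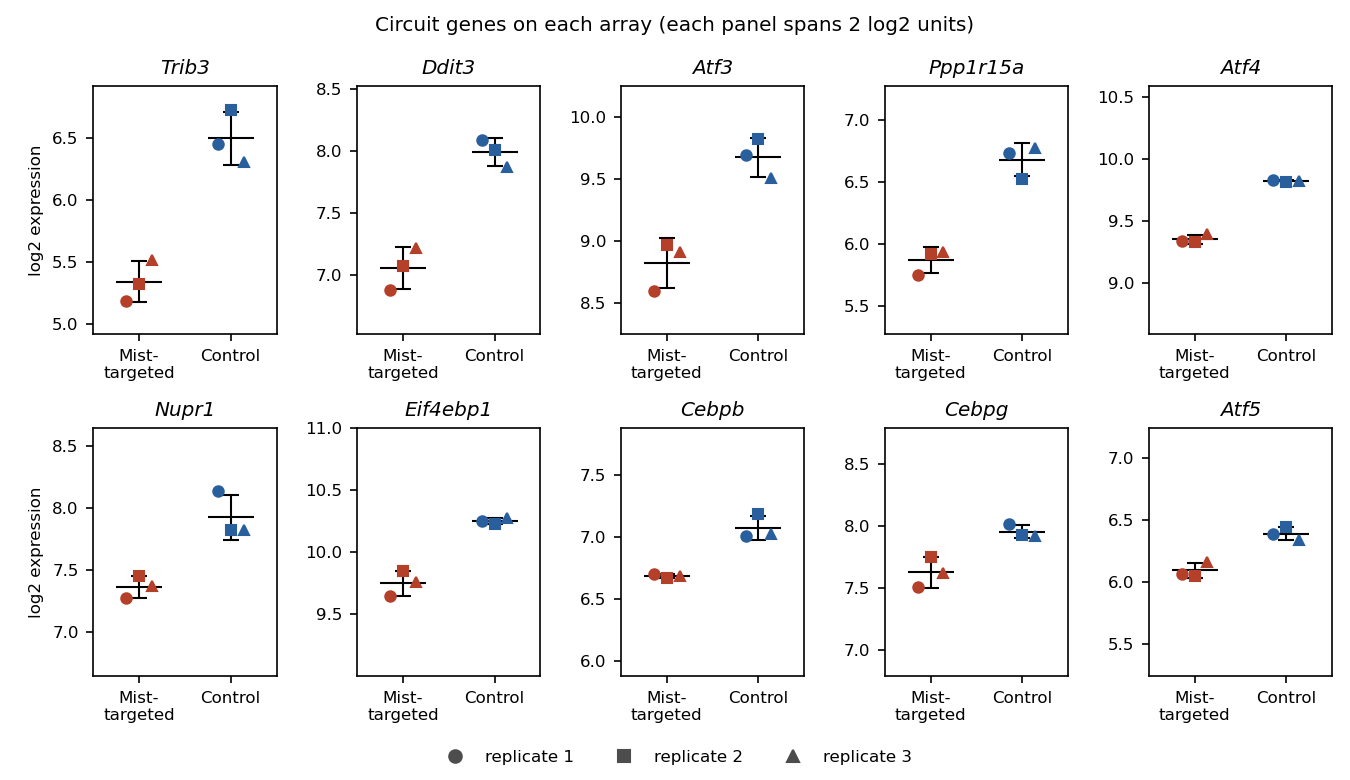
Log2 expression (vertical axis) of the 10 circuit genes on each array, Mist-targeted left and Control right, with a symbol for each replicate number and bars for the mean ± SD (n = 3 per group). Every panel spans the same range of log2 units, and in every panel the Mist-targeted arrays lie below the Control arrays.

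Atf4, the factor at the head of the circuit, had 9.34, 9.33 and 9.40 on the Mist-targeted arrays, against 9.83, 9.82 and 9.83 on the Control arrays (log2 expression, replicates 1 to 3). The Control arrays were nearly equal (SD 0.0060), and the nearest Mist-targeted array was well below them. The difference was -0.47 ± 0.076 (SE; 95% interval -0.65 to -0.29; 1.39-fold lower) with an adjusted p of 0.074 in limma, which does not pass. Atf5 encodes a relative of ATF4 that is likewise controlled at translation and is known for its part in mitochondrial stress. It had 6.07, 6.05 and 6.16 on the Mist-targeted arrays, against 6.39, 6.45 and 6.35 on the Control arrays. The groups were separate but close, and the difference of -0.30 ± 0.082 was the smallest of the 10 (95% interval -0.49 to -0.11; limma, adjusted p = 0.24).

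Ddit3 encodes CHOP, a C/EBP family protein that pairs with other C/EBP proteins and takes part in cell death under lasting stress. It had 6.88, 7.07 and 7.22 on the Mist-targeted arrays, against 8.09, 8.01 and 7.87 on the Control arrays. Replicate 1 was the lowest Mist-targeted array, and the gap between the groups exceeded the range within either. Ddit3 fell 1.91-fold (-0.93 ± 0.11, SE, n = 3 per group; limma, adjusted p = 0.035). Trib3 encodes a pseudokinase that is induced by ATF4 and CHOP and in turn restrains them. Its values were 5.18, 5.32 and 5.51 on the Mist-targeted arrays, against 6.45, 6.73 and 6.31 on the Control arrays. Both groups spread more than those of Atf4, and they did not overlap. Trib3 fell 2.23-fold, the only circuit gene past 2-fold (-1.15 ± 0.14, SE; limma, adjusted p = 0.032).

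Atf3 encodes a stress-induced bZIP protein that acts mostly as a repressor, in macrophages also of cytokine genes. It had 8.60, 8.97 and 8.92 on the Mist-targeted arrays, against 9.69, 9.82 and 9.52 on the Control arrays. Replicate 1 lay below the other Mist-targeted arrays, and all 3 were below every Control array. The difference of -0.85 ± 0.13 (95% interval -1.15 to -0.54; 1.80-fold lower) was larger than that of Ppp1r15a, but its SE was larger too and it did not pass (limma, adjusted p = 0.062). Nupr1 encodes a small stress-induced chromatin protein. It had 7.27, 7.45 and 7.36 on the Mist-targeted arrays, against 8.13, 7.82 and 7.82 on the Control arrays. Control replicate 1 stood above the other Control arrays, and the difference was -0.56 ± 0.11 (95% interval -0.83 to -0.30; limma, adjusted p = 0.13). Without Control replicate 1 it was -0.46.

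Ppp1r15a, the stress-induced brake of the circuit, had 5.75, 5.92 and 5.94 on the Mist-targeted arrays, against 6.74, 6.53 and 6.77 on the Control arrays. The groups were separated by more than the range within either, and the gene fell 1.75-fold (-0.81 ± 0.10, SE; limma, adjusted p = 0.039). Ppp1r15b, its constitutive counterpart, had 8.19, 8.37 and 8.31 on the Mist-targeted arrays, against 8.35, 8.35 and 8.38 on the Control arrays. Its groups overlapped, with a difference of -0.07 (95% interval -0.27 to 0.12; limma, adjusted p = 0.87). Eif4ebp1 encodes 4E-BP1, which binds the cap-binding protein eIF4E and holds back translation. It had 9.65, 9.85 and 9.76 on the Mist-targeted arrays, against 10.25, 10.23 and 10.28 on the Control arrays. The Control arrays lay close together and above every Mist-targeted array, and the difference of -0.50 ± 0.087 did not pass (95% interval -0.70 to -0.30; limma, adjusted p = 0.082).

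Cebpb and Cebpg encode bZIP partners of ATF4 and CHOP; C/EBP beta is also a main activator of inflammatory genes in macrophages. Cebpb had 6.70, 6.67 and 6.69 on the Mist-targeted arrays, against 7.01, 7.19 and 7.02 on the Control arrays. The Mist-targeted arrays were nearly equal (SD 0.015), and the difference was -0.39 ± 0.086 (95% interval -0.59 to -0.19; limma, adjusted p = 0.16). Cebpg had 7.50, 7.75 and 7.62 on the Mist-targeted arrays, against 8.01, 7.93 and 7.92 on the Control arrays. Its groups came nearest to each other of all 10 genes, with 0.170 between the highest Mist-targeted and the lowest Control array, and its difference was -0.33 ± 0.094 (95% interval -0.55 to -0.11; limma, adjusted p = 0.27).

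**Figure D2:**
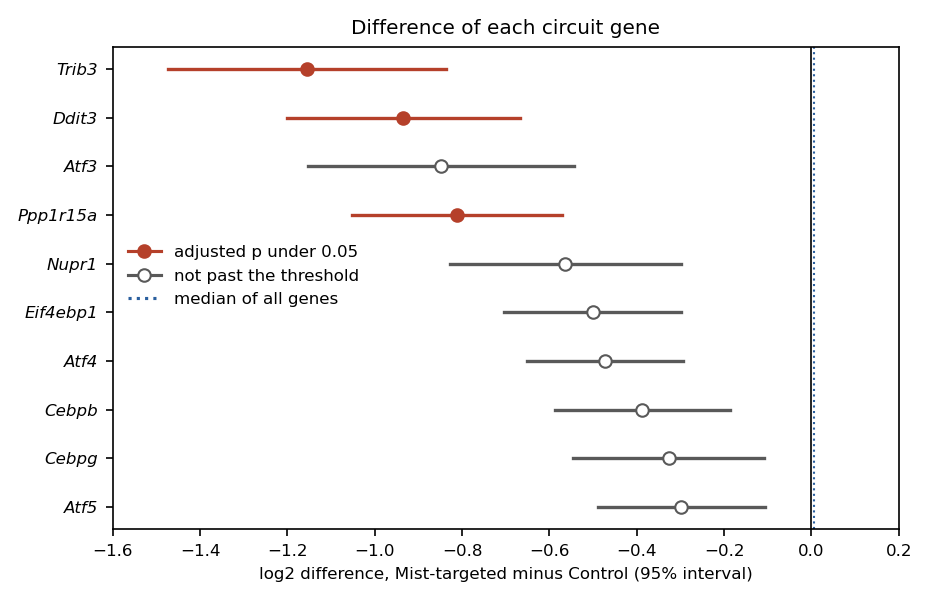
Log2 difference of each circuit gene, Mist-targeted minus Control (horizontal axis), with its 95% interval from limma; filled points passed an adjusted p of 0.05 and the dotted line is the median of all genes. Trib3, Ddit3 and Ppp1r15a passed, and the points run from -1.15 for Trib3 to -0.30 for Atf5.

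The Mist-targeted arrays were not equally low. Replicate 1 was the lowest Mist-targeted array for 7 of the 10 genes, replicate 2 for 3 and replicate 3 for 0. Among the 2211 genes of the whole table whose groups did not overlap and were lower, replicate 1 was the lowest in 49.1%. Against the Control mean, the median of the 10 genes was -0.63 on Mist-targeted replicate 1, -0.49 on replicate 2 and -0.53 on replicate 3. With that first array left out, the circuit's median difference was -0.49.

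Within an array, the difference between a pair of log2 values shows whether both genes changed alike; its level depends on the probes and was not interpreted. Ddit3 minus Atf4 was -2.30 ± 0.15 on Mist-targeted arrays and -1.84 ± 0.11 on Control arrays (mean ± SD, n = 3 each), a change of -0.46. Ppp1r15a minus Ppp1r15b was -2.42 ± 0.044 on Mist-targeted arrays and -1.68 ± 0.12 on Control arrays, a change of -0.74. For both pairs, every Mist-targeted array lay below every Control array, with the larger mean reduction in the first gene of the pair. Trib3 minus Ddit3 was -1.72 ± 0.034 on Mist-targeted arrays and -1.50 ± 0.19 on Control arrays, also without overlap, but its change of -0.22 was -0.11 without Control replicate 2. These 3 pairs each had an exact two-sided permutation p of 0.1, the smallest that 3 against 3 can give (adjusted p = 0.133 over the 4 pairs), so none can pass 0.05. Cebpb minus Cebpg overlapped between the groups, at -0.94 ± 0.14 on Mist-targeted arrays and -0.88 ± 0.13 on Control arrays (exact permutation p = 0.7, adjusted p = 0.7).

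**Figure D3:**
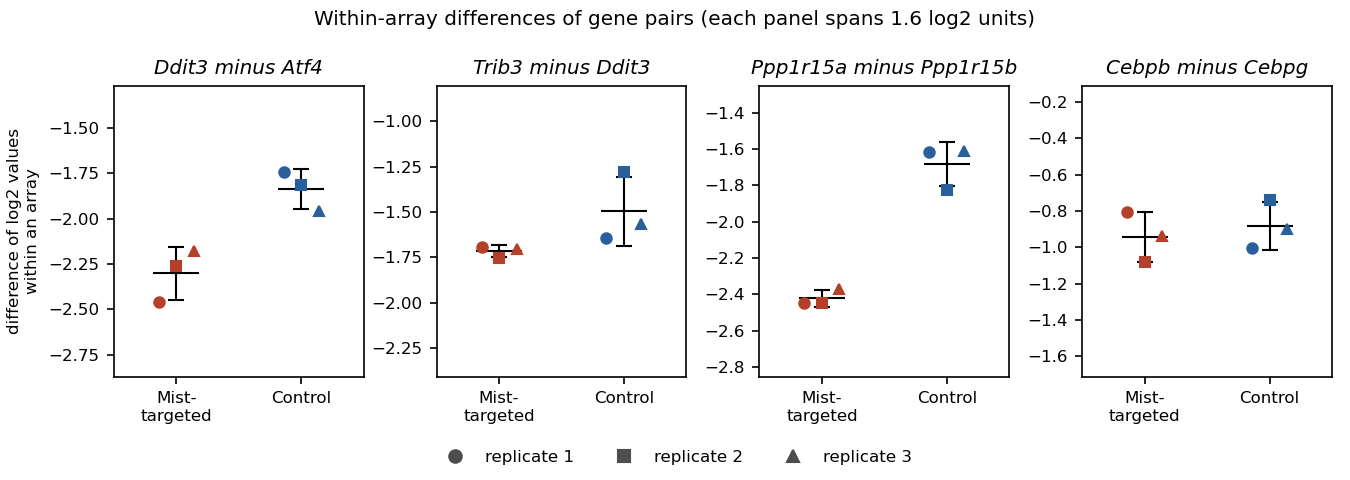
Within-array differences of log2 values (vertical axis) for 4 gene pairs, Mist-targeted left and Control right, with a symbol for each replicate number and bars for the mean ± SD (n = 3 per group). The groups are apart for Ddit3 minus Atf4, Trib3 minus Ddit3 and Ppp1r15a minus Ppp1r15b and overlap for Cebpb minus Cebpg.

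The rest of the pathway was read from 8 lists, chosen with earlier results of these data known. They held 120 measured genes, of which 7 fell, 1 rose and 112 did not pass, or 5.83% that fell against the 0.203% of all genes. With each array left out in turn the 7 became between 0 and 5, and the 1 became 0. Over all genes, 45 lower became 0 to 12 and 47 higher became 1 to 22. Upstream of ATF4, none of the 13 genes of the eIF2 kinases, eIF2B and phosphatase cofactors passed in limma or with a trended, robust variance. At an unadjusted p under 0.05 limma had 1 lower and 3 higher, where 5.79% of all genes were lower. The share of all genes higher was not counted, either unadjusted or without overlap of the groups. Counts of such genes therefore have no share beside them, here and below. The list's median was 0.0010. Eif2ak2, which encodes the double-stranded RNA-activated kinase PKR and is itself interferon-induced, had a difference of 0.37 ± 0.10 (limma, adjusted p = 0.24), and Eif2b4, an eIF2B subunit, one of 0.28 ± 0.090 (adjusted p = 0.35). Of 20 other bZIP factors 0 passed, with a median of 0.04. At an unadjusted p under 0.05 limma had 2 lower and 2 higher. With a trended, robust variance 1 was higher, where 95 of all 22180 genes rose. The immediate early factor Fos had 7.16, 7.13 and 7.38 on the Mist-targeted arrays, against 6.50, 6.63 and 6.49 on the Control arrays. It thus stood higher on every Mist-targeted array, opposite to the circuit's bZIP genes, at 0.68 ± 0.10 (adjusted p = 0.056). The myeloid factor Cebpe differed by 0.53 ± 0.16 (adjusted p = 0.30). Without overlap of the groups, 2 of the 20 were higher, Fos and Cebpe. Lower without overlap were 3, Jun (-0.24), Atf6 (-0.30) and Mafk (-0.13), where 9.97% of all genes were lower.

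Downstream, a list of genes that ATF4 is known to activate held mostly genes of amino acid supply and redox, and others such as Ddit4 and Fgf21. Of its 26 genes 6 fell and 0 rose, with a median of -0.43. By the same rule 0.203% of all genes fell. At an unadjusted p under 0.05 limma had 17 lower and 0 higher, against 5.79% of all genes lower. With a trended, robust variance 10 fell, where 146 of all 22180 genes did. The groups did not overlap and were lower in 19 of the 26, against 9.97% of all genes. The mTORC1 inhibitor gene Ddit4 averaged 4.22 ± 0.30 on Mist-targeted arrays and 6.04 ± 0.16 on Control arrays (mean ± SD, n = 3 each; limma, adjusted p = 0.014). Its Mist-targeted mean lay below the median of every array. Aldh1l2, a mitochondrial folate enzyme gene, averaged 5.23 ± 0.30 on Mist-targeted arrays and 6.73 ± 0.068 on Control arrays (adjusted p = 0.020). The cystine transporter gene Slc7a11 had 7.88, 7.87 and 7.77 on the Mist-targeted arrays, against 9.07, 9.14 and 9.31 on the Control arrays (adjusted p = 0.0053). Its groups were far apart, and its call was lost without Control replicate 2 (adjusted p = 0.057) or Mist-targeted replicate 3 (0.0503). Cth, cystathionine gamma-lyase, averaged 6.47 ± 0.17 on Mist-targeted arrays and 7.61 ± 0.066 on Control arrays (adjusted p = 0.017). The calls of Ddit4 and Aldh1l2 were lost without any Control replicate or Mist-targeted replicate 3 (limma, adjusted p up to 0.090 for Ddit4 and 0.111 for Aldh1l2), and that of Cth without any array other than Mist-targeted replicate 2 (up to 0.099). The list did not move as one: the amino acid transporter genes Slc7a5 and Slc1a5 and the serine synthesis gene Phgdh, picked once their values were known, differed by 0.01, 0.07 and -0.16, and none passed.

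All 11 measured genes of the tRNA synthetase list, 10 synthetases and the tRNA exporter gene Xpot, had negative differences. The groups did not overlap in any of the 11, where 9.97% of all genes were lower without overlap. The sizes were small, from -0.44 for Cars to -0.15 for Xpot with a median of -0.31. None passed in limma (8 lower and 0 higher at an unadjusted p under 0.05; 3 lower with a trended, robust variance). Of all 22180 genes, 5.79% were lower unadjusted and 146 fell with a trended, robust variance. Iars, the isoleucine enzyme gene, had 10.97, 11.06 and 10.92 on the Mist-targeted arrays, against 11.36, 11.35 and 11.40 on the Control arrays (-0.39 ± 0.082; adjusted p = 0.14). Eprs, the enzyme gene for glutamate and proline, differed by as much (-0.39 ± 0.084; adjusted p = 0.15).

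The list of CHOP targets, which leaves out circuit genes such as Trib3, went both ways. Of 12 genes, 1 fell and 1 rose, and the median was -0.09. Over all genes, 0.203% fell and 0.212% rose. At an unadjusted p under 0.05 limma had 3 lower and 3 higher, and with a trended, robust variance 2 fell and 1 rose. Of all 22180 genes, 5.79% were lower unadjusted, and 146 fell and 95 rose with a trended, robust variance. Ero1a, an oxidase of protein folding in the endoplasmic reticulum, had 10.17, 10.62 and 10.51 on the Mist-targeted arrays, against 11.64, 11.51 and 11.40 on the Control arrays. It fell 2.12-fold (-1.08 ± 0.13, SE; limma, adjusted p = 0.038). Bcl2l11, which encodes the death protein BIM, had 6.94, 7.00 and 7.00 on the Mist-targeted arrays, against 6.36, 6.19 and 6.17 on the Control arrays. It rose by 0.74 ± 0.088 (limma, adjusted p = 0.032), in the opposite direction to Ddit3. Both calls were lost without any 1 of the 6 arrays, where 0 to 12 of all genes fell and 1 to 22 rose.

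No gene of the neighbouring arms of the stress response passed. Of 19 genes of the ATF6 and IRE1 arm 0 passed in limma (4 lower and 0 higher unadjusted; 1 lower with a trended, robust variance), and the median was -0.02. Of all 22180 genes, 5.79% were lower unadjusted and 146 fell with a trended, robust variance. Without overlap of the groups 5 of the 19 were lower and 1 was higher, where 9.97% of all genes were lower. The share of all genes higher without overlap was not counted. Ern1, which encodes the sensor IRE1, had 6.65, 6.69 and 6.81 on the Mist-targeted arrays, against 7.23, 7.37 and 7.43 on the Control arrays (-0.63 ± 0.094; adjusted p = 0.057). Herpud1, which acts in degradation of misfolded proteins and is also an ATF4 target, differed by -0.36 ± 0.093 (adjusted p = 0.21). Of 3 genes picked once their values were known, Xbp1 and Dnajb9 were lower without overlap, by -0.35 and -0.37 (limma, adjusted p = 0.22 and 0.23). The third, the chaperone gene Hspa5 (BiP), overlapped between the groups and differed by 0.06 (95% interval -0.14 to 0.25). None of 11 genes of cap-dependent translation around 4E-BP1 passed in limma, adjusted or unadjusted, or with a trended, robust variance; the nearest were Eif4a1 at -0.18 ± 0.094 and Eif4g2 at 0.15 ± 0.083. Of 12 mitochondrial stress genes 0 passed (2 lower and 0 higher unadjusted; 0 with a trended, robust variance). Lonp1, a matrix protease gene, had a difference of -0.57 ± 0.12 (adjusted p = 0.13) and the mitochondrial chaperone gene Hspa9 one of -0.19 ± 0.078 (adjusted p = 0.50).

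**Figure D4:**
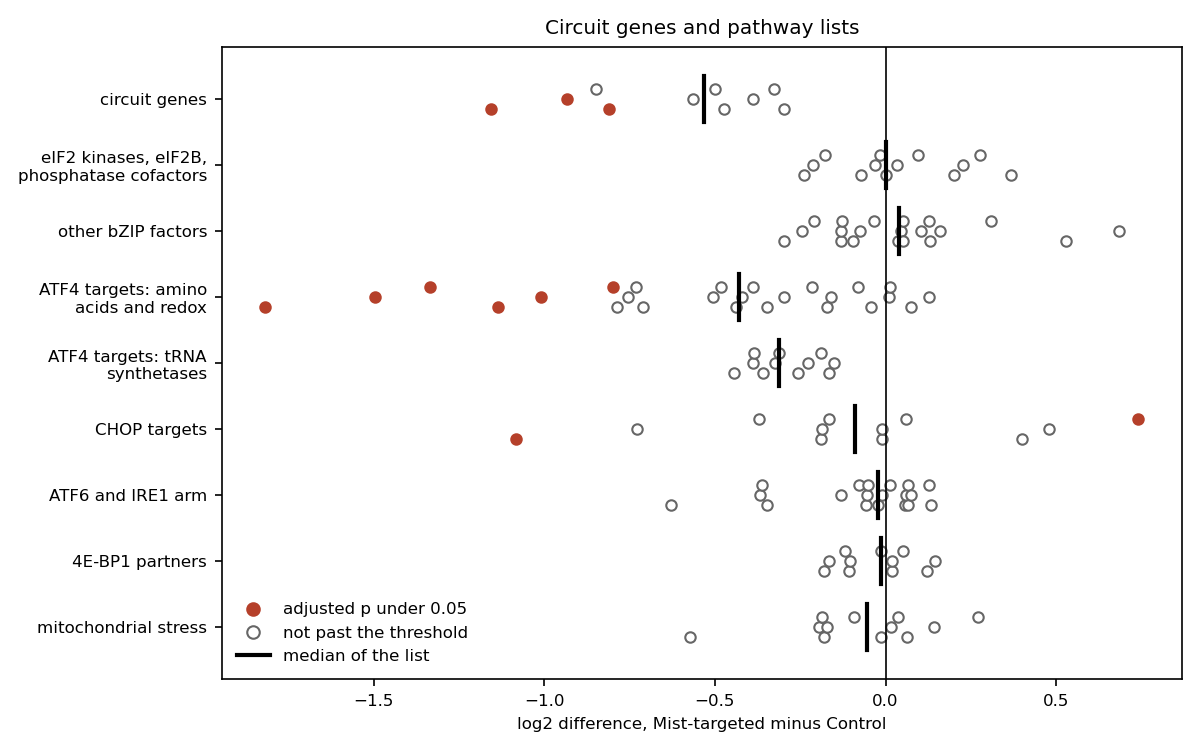
Log2 differences, Mist-targeted minus Control (horizontal axis), of the circuit genes and of the genes of 8 pathway lists, 1 point per gene, with filled points past an adjusted p of 0.05 and a bar at the median. The circuit genes, the amino acid and redox targets and the tRNA synthetase list have medians of -0.53, -0.43 and -0.31, and the other lists have medians between -0.09 and 0.04.

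The arrays were alike in their overall values, with medians between 4.468 and 4.497. Of 9 macrophage markers Fcgr1 rose, 0 fell and 8 did not pass. The call of Fcgr1 was lost without any array other than Mist-targeted replicate 2 (limma, adjusted p up to 0.090), and without moderation (0.090). The summed log2 level of the list was 88.0 to 88.7 on Mist-targeted arrays and 87.0 to 87.6 on Control arrays. Its mean per gene was 9.78 to 9.86 on Mist-targeted arrays and 9.67 to 9.73 on Control arrays. Markers of T and NK cells (8 genes), B cells (4), neutrophils (6) and fibroblasts (6) had 0 calls in limma, with 1 neutrophil gene at an unadjusted p under 0.05 and 0 calls with a trended, robust variance. Their lists averaged 3.92 to 4.19 on Mist-targeted arrays and 3.90 to 4.23 on Control arrays, below the median of every array. Summed log2 levels of T and NK cell markers were 32.6 to 33.6 on Mist-targeted arrays and 33.3 to 33.8 on Control arrays, and those of B cell markers 15.7 to 16.04 on Mist-targeted arrays and 15.7 to 15.9 on Control arrays. Neutrophil markers summed to 24.4 to 24.8 on Mist-targeted arrays and 24.0 to 25.1 on Control arrays, and fibroblast markers to 23.6 to 24.3 on Mist-targeted arrays and 23.4 to 24.0 on Control arrays. The sums of these 4 lists overlapped between the groups, while that of the macrophage markers, which include Fcgr1, did not; its part in the results was not tested.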

How the data were processed

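Each array has a column of log2 expression that the authors deposited. The submitters' processing notes name RMA and Partek, without versions or roles; array design and settings were not given in the sources used here. Because RMA aligns the distributions of the arrays, a change common to most transcripts would shrink in these values. They were used as deposited, and 0 per-sample columns were left unused. Probe sets took their names from the platform annotation: of 41345, 23521 had 1 gene symbol, 1814 several and 16010 none listed. A gene was read at its single-gene probe set with the highest mean over the 6 arrays.

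Groups follow the labels. These give no batch and no sign that replicates are separate cultures, so a p-value reflects the scatter of these 6 samples, part of which may be technical. Limma 3.58.1 under R 4.3.3 (lmFit, then eBayes; two-sided tests; no term but group) gave differences, SE and 95% intervals. P-values of all probe sets were adjusted together by Benjamini-Hochberg, with calls made at an adjusted p under 0.05. The number of arrays limits the precision (median SE 0.11). Tables and plots used Python 3.11.15, pandas 2.3.3 and matplotlib 3.10.9.

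The circuit genes and lists were chosen with earlier results of these data known, so no p was adjusted over them and no list was tested as a set. All 10 circuit genes were named. Each list gave up to 4 called genes, ranked by size, or its 2 genes with the smallest p if it had no call. Also named were the genes of the within-array pairs and the 3 genes nearest in profile to Trib3, Ddit3 and Ppp1r15a, leaving out symbols of the form Gm, Rik and LOC with numbers. The alternatives tried were a replicate block, a trended robust variance, no moderation, array weights, quantile normalization, median centring, removal of the dimmest 40%, only probe sets with 1 gene, the mean of a gene's probe sets, and leaving out each array.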

Additional observations from a re-analysis of the deposited data

How the results depend on the processing

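All 10 circuit genes had negative differences and an unadjusted p under 0.05 under each of the 15 alternatives, with medians between -0.58 and -0.49. The sign could change only under quantile normalization or median centring, since the groups did not overlap in the deposited values. The number called depended on the variance estimate and on the probe sets tested. Against 3 genes called lower, limma with the replicate number as a block called 0, as did the model without moderation. Both called 0 of all 22180 genes. A trended, robust variance called 6 (Trib3, Ddit3, Atf3, Ppp1r15a, Atf4 and Eif4ebp1), where 146 of all genes fell, against 45 in limma without it. A fit on probe sets with 1 gene called 8, all but Cebpg and Atf5, where 1.88% of all genes fell. Leaving out each array gave 0 to 0, where 0 to 12 of all genes fell. Of the pathway lists, 7 genes were called lower and 1 higher. The replicate block and no moderation gave 0 and 0, the trended, robust variance 16 and 2, and probe sets with 1 gene 24 and 4. Over all genes the last 2 settings gave 146 and 95, and 416 and 261. Leaving out the dimmest 40% gave 10 lower and 2 higher, where 78 of all genes fell and 62 rose. Quantile normalization gave 8 lower and 2 higher, where 55 of all genes fell and 48 rose. Leaving out each array gave 0 to 5 lower and 0 to 0 higher. Cebpb minus Cebpg lay between -0.128 and 0.010 with single arrays left out and changed sign without Mist-targeted replicate 2 (0.0100) or Control replicate 2 (0.0102). The other pairs kept their sign, which with single arrays left out follows from their lack of overlap. Same-numbered arrays deviated together by correlations of 0.201, 0.096 and 0.033, and all 3 Mist-targeted arrays were closest to the Control array of their own number. The labels do not say whether the numbers pair the samples, and the main fit did not pair them. The block leaves fewer degrees of freedom. Its adjusted p values in limma were 0.127 for Trib3, 0.144 for Ddit3 and 0.137 for Ppp1r15a. No measure of background was used, so differences of dim genes may be understated.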

Other observations

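The genes that followed the 3 called circuit genes most closely over the 6 arrays were sought in the whole table. Likeness was measured as the root mean square distance between the log2 values of both genes, each centred on its own mean, and it is a description, since genes that differ between the groups by a similar amount come out near each other. Nearest to Trib3 were Cox6a2, a subunit of cytochrome oxidase known from muscle, at 0.122, the circadian and hypoxia-responsive repressor gene Bhlhe40 at 0.127 and the heparanase gene Hpse at 0.128. Cox6a2 averaged 4.67 ± 0.13 on Mist-targeted arrays and 5.70 ± 0.075 on Control arrays (mean ± SD, n = 3 each; limma, adjusted p = 0.017). Bhlhe40 averaged 8.57 ± 0.21 on Mist-targeted arrays and 9.51 ± 0.16 on Control arrays, and did not pass (limma, adjusted p = 0.055). Hpse averaged 6.91 ± 0.15 on Mist-targeted arrays and 8.09 ± 0.18 on Control arrays (limma, adjusted p = 0.020). Nearest to Ddit3 were Rilpl2 at 0.0605, Cox6a2 at 0.0657 and the neutral amino acid transporter gene Slc1a4 at 0.0810, the 1 gene of these that stands on an ATF4 target list (log2 difference -0.79 ± 0.11; limma, adjusted p = 0.056). Rilpl2 averaged 7.07 ± 0.21 on Mist-targeted arrays and 7.95 ± 0.031 on Control arrays (limma, adjusted p = 0.045). Nearest to Ppp1r15a were the integrin gene Itgax at 0.0472, the semaphorin receptor gene Plxnc1 at 0.0701 and the semaphorin gene Sema4g at 0.0703. Itgax averaged 4.85 ± 0.10 on Mist-targeted arrays and 5.69 ± 0.17 on Control arrays (limma, adjusted p = 0.045), and Plxnc1 averaged 7.92 ± 0.11 on Mist-targeted arrays and 8.64 ± 0.063 on Control arrays (limma, adjusted p = 0.039). The calls of Cox6a2, Rilpl2, Itgax and Plxnc1 were lost without any 1 of the 6 arrays, where 0 to 12 of all genes fell. That of Hpse was also lost without Control replicate 2, where 0 of all genes fell. The cause of these likenesses was not tested.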
